A study of Mus musculus with 9 samples.

Results

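The mitochondrial ribosomal proteins were followed here in hearts of mice that express Klf9 from a transgene in cardiomyocytes. The members were all protein-coding genes in the count tables of 1, 4 and 8 weeks of age whose name is Mrpl or Mrps followed by a digit, which gave 77 genes on 17 chromosomes among 26234, 24222 and 30074 listed genes (16872, 16378 and 18347 of them protein-coding). The name says Mrpl for 48 and Mrps for 29, and 4 pseudogenes of the same names were left out. By their place in the ribosome 50 belong to the large subunit and 26 to the small one, while Mrps36 is now placed in another mitochondrial enzyme complex. A bacterial homologue is known for 46 and none for 28, and 2 are further relatives of the bacterial S18 protein. Polyadenylated RNA was sequenced from hearts labelled Wt-Cre, which carry the alphaMHC-Cre transgene alone, and from hearts labelled Klf9KI, which carry alphaMHC-Cre and the Klf9 knock-in transgene. The alphaMHC promoter drives expression in cardiomyocytes, so both genotypes carry the Cre driver and the control is not a mouse without Cre. Each genotype had 3 libraries at each of the 3 ages (18 in all), with 12086856 to 32855383 counts per library, and the labels do not say whether a library is 1 animal. Klf9 binding was read from 1 ChIP-seq library of sham-operated and 1 of TAC-operated adult hearts of 12 to 14 weeks, without replicates; TAC, a constriction of the aorta that overloads the heart, had been in place for 2 weeks.

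The mitochondrial ribosome translates the few messenger RNAs that the organelle's own genome encodes, all of them for core subunits of the respiratory chain and the ATP synthase. Its RNAs come from mitochondrial DNA, whereas its proteins come from nuclear genes, are made in the cytosol and are imported, so the heart must keep nuclear and mitochondrial genomes in step to build its respiratory chain. Klf9 is a zinc-finger transcription factor that binds GC-rich promoter sequence and responds to glucocorticoids.

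Klf9 itself was read first, as a check of the labels. Levels are in CPM, counts scaled to a common library size with TMM factors. The 3 Klf9KI hearts of 1 week had 193, 222 and 183 CPM of Klf9, and the 3 Wt-Cre hearts of that age had 23.2, 21.9 and 17.2 CPM (edgeR quasi-likelihood test, log2 3.26, Benjamini-Hochberg adjusted p = 3.55e-09). The difference was smaller at 8 weeks (log2 1.19, adjusted p = 0.00594) and did not pass the threshold of 0.05 at 4 weeks (log2 0.37, adjusted p = 0.111), when Klf9 stood at 143 to 179 CPM against 113 to 142 CPM. Replicate 2 of Klf9KI at 8 weeks stood apart from its group: its chi-square per gene against the other two libraries was 80.4 and 111, whereas every other pair of replicates lay between 7.59 and 40.1. The number of members called at 8 weeks and their median are therefore also given without it. Values of single genes, subunits, length classes and lists at 8 weeks include it.

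All 77 genes passed the filter on low counts at every age. Levels in this paragraph are CPM of the fit over all 18 libraries. In the 9 Wt-Cre hearts the mean levels of the 77 ran from 10.5 to 295 CPM with a median of 49.6 CPM, Mrpl42 being the highest. The gene lengths listed by the authors ran from 607 to 8631 bases. They need not be the lengths of the main transcripts, and the order per kilobase rests on them. Per kilobase of length the median level was 19.8 CPM. The 3 highest were Mrps21 (114 CPM per kb), a small-subunit protein with a bacterial homologue, Mrps23 (110.2 CPM per kb), which bacteria lack, and Mrpl34 (98.5 CPM per kb), one of the smallest proteins of the large subunit. The 3 lowest were Mrps10 (3.59 CPM per kb), Mrps22 (4.27 CPM per kb) and Mrps30 (4.61 CPM per kb). Mrps30 carries a small-subunit name but sits in the large subunit, as does Mrps18a. Neither end of the order held at every age. At 1 week Mrps18b was the lowest in Wt-Cre hearts, at 2.62 CPM per kb against 3.97 CPM per kb for Mrps10, and at 4 weeks it stood at 6.94 and Mrps10 at 2.45 CPM per kb. Of the 2 genes highest over the 9 hearts, Mrps21 averaged 75.7, 89.0 and 177 CPM per kb at 1, 4 and 8 weeks. Mrps23 averaged 71.4, 90.2 and 169 CPM per kb. These values compare the 2 genes and do not name the highest of the 77 at each age.

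At 8 weeks the transcripts of the mitochondrial ribosome were lower in Klf9KI than in Wt-Cre hearts. The edgeR quasi-likelihood test called 18 of the 77 lower (5.52% of the 14483 genes tested were called lower) and 0 higher (4.96% were called higher), and at an unadjusted p below 0.05 it counted 49 lower (12.3% of all genes) and 0 higher. DESeq2 called 35 lower, among them all 18, and 0 higher. The share of all genes called by DESeq2 was not worked out, so its count has no background here. The log2 difference was below 0 for 74 of 77 with a median of -0.61, beside a median of 0.04 over all genes tested. In 56 of 77 genes every Klf9KI heart lay below every Wt-Cre heart (16.1% of all genes had such groups). Counts per subunit were 12 of 50 in the large subunit (median -0.60) and 5 of 26 in the small subunit (median -0.56), with Mrps36 as the 18th. Proteins with a bacterial homologue gave 11 of 46 (median -0.57) and those without one 6 of 28 (median -0.68). The number of calls depended on single libraries: it was 0 with either Wt-Cre replicate 1 or 2 left out, 6 without Wt-Cre replicate 3, 9 without Klf9KI replicate 1, 30 without Klf9KI replicate 2 and 33 without Klf9KI replicate 3. The median stayed between -0.70 and -0.48 over these and was -0.48 without Klf9KI replicate 2.

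**Figure D1:**
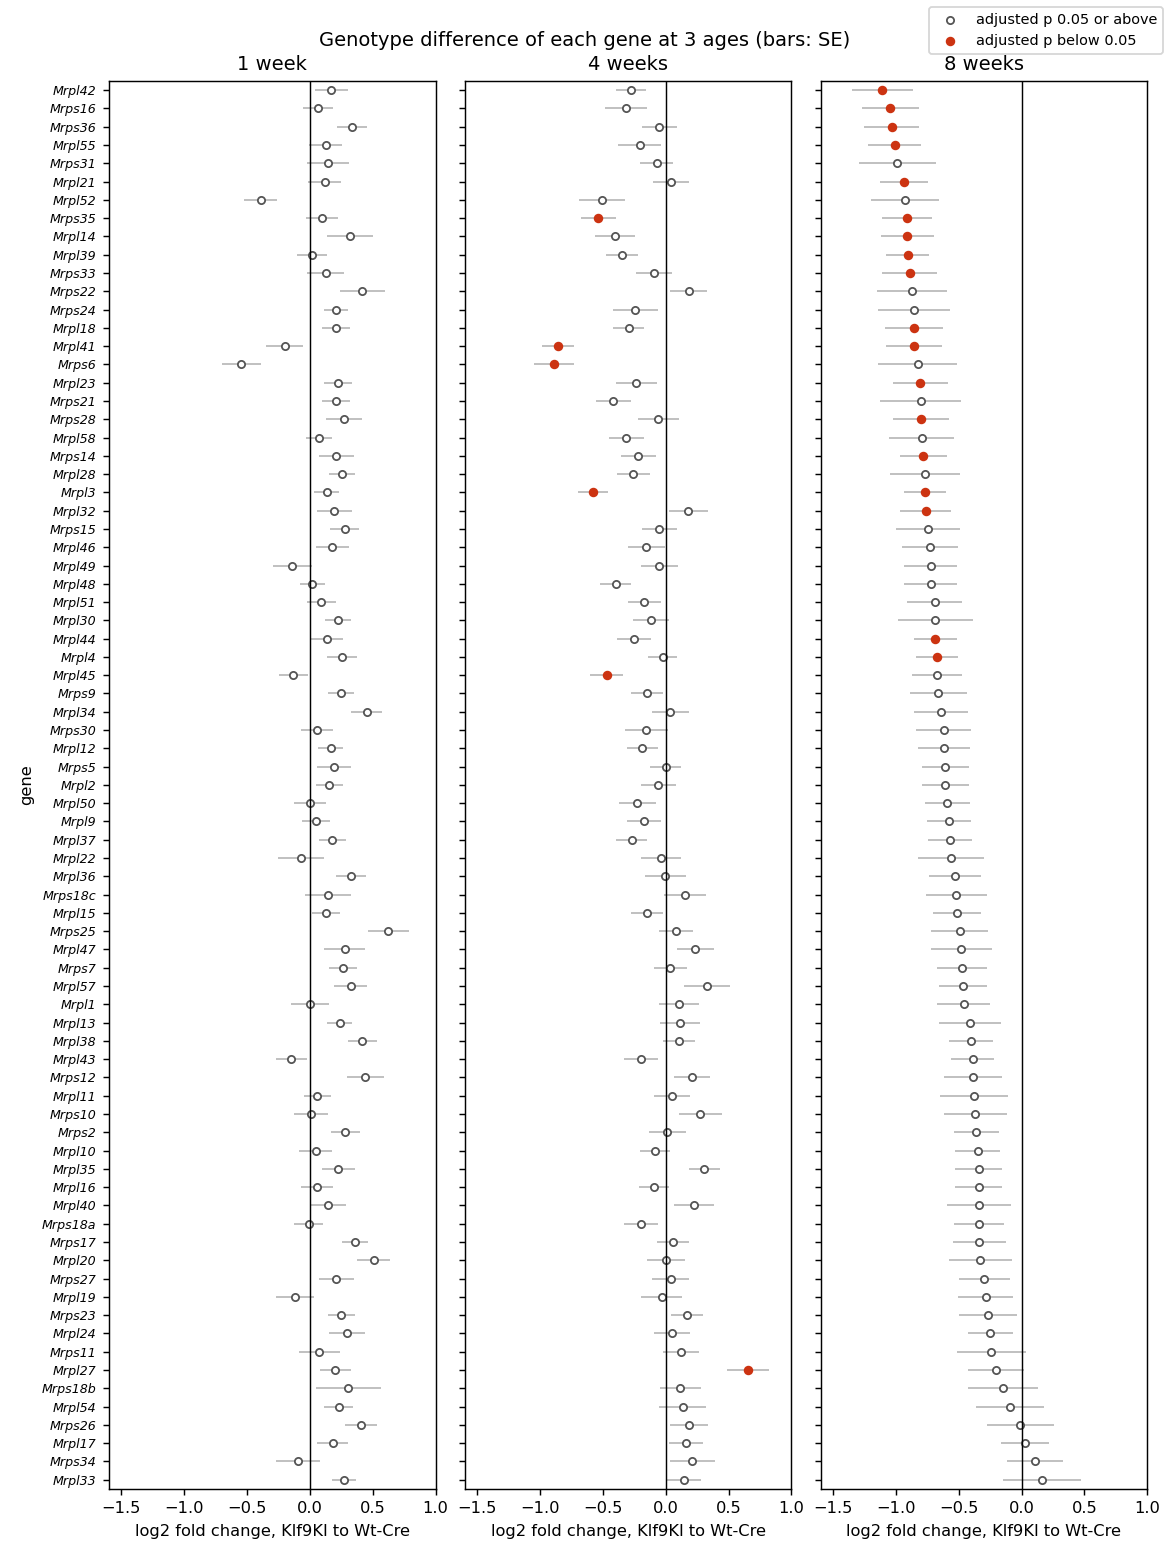
Log2 difference between Klf9KI and Wt-Cre hearts for each of the 77 genes at 1, 4 and 8 weeks (3 libraries per genotype and age), with the standard error of the edgeR fit and calls at an adjusted p below 0.05 marked. At 8 weeks 74 of 77 lie below 0 and 18 are called, at 4 weeks 6 are called, and at 1 week none is called while 67 of 77 lie above 0.

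Several values of the sampled tissue moved with genotype at 8 weeks. The summed level of 5 cardiomyocyte markers, all of them in the table and none at 0, was 16988 to 18931 CPM in Klf9KI and 25395 to 30805 CPM in Wt-Cre hearts. Fibroblast markers summed to 908 to 1822 CPM against 546 to 652 CPM, macrophage markers to 394 to 500 CPM against 262 to 349 CPM, and 4 atrial markers to 1456 to 2303 CPM against 48.0 to 209 CPM, with none at 0. Smooth muscle markers summed to 92.1 to 193 CPM in Klf9KI against 215 to 576 CPM in Wt-Cre hearts, and proliferation markers to 23.4 to 80.2 CPM against 12.5 to 13.6 CPM. Endothelial markers overlapped between the genotypes, at 912 to 1172 CPM against 941 to 1029 CPM. A sum is carried most by its most abundant markers, and few single markers were called. The atrial list was Myl7, Myl4, Sln, Nppa and Bmp10, and which of them carried its sum was not worked out. The edgeR test called 1 of 5 cardiomyocyte and 1 of 4 smooth muscle markers lower. It called 2 of 5 fibroblast, 2 of 5 macrophage, 2 of 5 proliferation and 1 of 2 tested atrial markers higher. The part of the marker shifts in the lower values of the mitochondrial ribosome was not tested. In whole tissue fewer cardiomyocytes and less RNA of a given gene in each cardiomyocyte cannot be told apart. Genes of mitochondrial DNA took 18.6 to 20.9% of the counts in Klf9KI and 27.7 to 29.7% in Wt-Cre hearts. With those genes left out before normalization the count was 18 lower as well.

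Among large-subunit proteins with a bacterial homologue, Mrpl3 is a core protein whose inherited defects in humans cause cardiomyopathy. It stood at 67.7, 68.0 and 78.4 CPM in the Klf9KI hearts and at 128, 118 and 119 CPM in the Wt-Cre hearts. The groups did not overlap, and the lowest control was far above the highest Klf9KI heart (log2 -0.77, SE 0.17, adjusted p = 0.0164). Mrpl21, which binds ribosomal RNA of the large subunit, stood at 28.0, 20.9 and 22.0 CPM against 46.0, 45.4 and 44.6 CPM. The 3 controls were nearly equal and every Klf9KI heart was far below them (fold 0.522; log2 -0.94, SE 0.19, adjusted p = 0.0121). Mrpl55 stood at 53.7, 32.9 and 47.9 CPM against 100.1, 83.0 and 88.1 CPM, with replicate 2 the lowest of the Klf9KI hearts and no overlap (log2 -1.01, SE 0.21, adjusted p = 0.0132). Calls in the same class were also made for Mrpl4 (log2 -0.67, SE 0.17, adjusted p = 0.0266), Mrpl14 (log2 -0.91, SE 0.21, adjusted p = 0.0212), Mrpl18, Mrpl23 and Mrpl32, whose log2 differences were -0.86, -0.81 and -0.76. Mrpl23 lines the exit of the peptide tunnel, and Mrpl32 is cut by a protease of the inner membrane before it enters the ribosome.

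Among large-subunit proteins that bacteria lack, Mrpl39 had the lowest adjusted p of the 77. It stood at 28.4, 30.3 and 27.6 CPM in the Klf9KI and 54.4, 54.8 and 52.4 CPM in the Wt-Cre hearts, with a spread of a few CPM inside each group and no overlap between them (log2 -0.91, SE 0.17, adjusted p = 0.00812). Mrpl42, the highest of the 77 in CPM, stood at 230.4, 127 and 229 CPM against 408, 441 and 415 CPM. Replicate 2 was far below the other Klf9KI hearts, but all 3 were below the controls, and the fitted difference was the largest of the 77 (log2 -1.11, SE 0.24, adjusted p = 0.0158). Mrpl44, which has a fold like that of RNase III enzymes and is mutated in an inherited human cardiomyopathy, stood at 33.7, 29.9 and 34.7 CPM against 51.4, 53.8 and 53.0 CPM without overlap (log2 -0.69, SE 0.17, adjusted p = 0.0291). Its span shares bases with Wdfy1 on the opposite strand, as Mrpl21 does with Ighmbp2, Mrpl14 with Tmem63b and Mrpl18 with Tcp1. The sources do not say whether counting used the strand, so reads of such partners may not be separated. Mrpl41 stood at 35.0, 26.2 and 39.5 CPM against 71.5, 63.4 and 47.6 CPM; here the highest Klf9KI and the lowest Wt-Cre heart were closer to each other than to the far ends of their groups (log2 -0.86, SE 0.22, adjusted p = 0.0327).

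In the small subunit, Mrps16 is a core protein of bacterial descent and is mutated in a fatal infant disorder of the respiratory chain in humans. It stood at 39.3, 23.5 and 33.5 CPM against 78.6, 62.9 and 57.1 CPM, the groups standing apart (log2 -1.04, SE 0.23, adjusted p = 0.0156). Mrps35, a mitochondrial addition, stood at 61.4, 40.9 and 51.8 CPM against 106, 101 and 83.5 CPM, again without overlap (log2 -0.91, SE 0.20, adjusted p = 0.0164). Mrps14 (log2 -0.78, SE 0.19, adjusted p = 0.0242), Mrps33 (log2 -0.89, SE 0.22, adjusted p = 0.0278) and Mrps28 (log2 -0.80, SE 0.22, adjusted p = 0.0412) were called as well. Mrps36, which is known as a subunit of the 2-oxoglutarate dehydrogenase complex despite its name, stood at 44.6, 30.5 and 48.8 CPM against 90.8, 95.0 and 68.4 CPM. The lowest control was above the highest Klf9KI heart (log2 -1.03, SE 0.22, adjusted p = 0.0146). Each of the 8 genes with the lowest adjusted p at 8 weeks (Mrpl39, Mrpl21, Mrpl55, Mrps36, Mrps16, Mrpl42, Mrpl3 and Mrps35) lost its call once Wt-Cre replicate 1 or 2 was left out, at adjusted p between 0.0519 and 0.100, and kept its direction.

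The values just outside the threshold at 8 weeks were those of Mrpl49 (log2 -0.72, adjusted p = 0.051), Mrpl52 (log2 -0.93, adjusted p = 0.0523), Mrpl48 (log2 -0.72, adjusted p = 0.0541) and Mrpl45 (log2 -0.67, adjusted p = 0.0551), and those just inside were Mrpl23 and Mrps28 (adjusted p = 0.0405 and 0.0412). Mrpl12 is the mobile stalk protein that also binds the mitochondrial RNA polymerase. It stood at 83.3, 59.2 and 96.1 CPM against 133, 116 and 117 CPM, without overlap, and did not pass the test (log2 -0.62, SE 0.21, adjusted p = 0.0834). Its partners at the base of the stalk, Mrpl10 and Mrpl11, had log2 differences of -0.35 and -0.38 (adjusted p = 0.258 and 0.428). Mrps22, mutated in a human disorder with cardiomyopathy, stood at 11.3, 11.0 and 6.32 CPM against 17.6, 19.9 and 15.0 CPM (log2 -0.87, SE 0.28, adjusted p = 0.0721). Mrpl58, a peptidyl-tRNA hydrolase that rescues stalled ribosomes, had a log2 difference of -0.80 (adjusted p = 0.0793). Mrps12, at the decoding site, and Mrps2, another core protein of the small subunit, had -0.39 and -0.36 (adjusted p = 0.337 and 0.25). Among the 3 relatives of the bacterial S18 protein, Mrps18a, Mrps18b and Mrps18c, the log2 differences were -0.34, -0.15 and -0.52 and none passed the test; Mrps30 had -0.62 (adjusted p = 0.104).

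A few of the 77 showed no such shift at 8 weeks, and they were picked out after their values were seen. Mrps34, a small-subunit protein needed to keep that subunit stable, stood at 21.7, 17.9 and 21.2 CPM in the Klf9KI and 22.8, 15.0 and 18.5 CPM in the Wt-Cre hearts. The groups overlapped over nearly their whole range (log2 0.11, SE 0.23, adjusted p = 0.82), and its span overlaps Mapk8ip3 on the opposite strand. Mrpl33 stood at 90.2, 44.0 and 127 CPM against 72.7, 89.2 and 72.0 CPM, the Klf9KI hearts reaching both below and above all controls (log2 0.16, SE 0.31, adjusted p = 0.801). Mrpl17 and Mrps26 had log2 differences of 0.02 and -0.01. Their standard errors were 0.19 to 0.31 on the log2 scale, so shifts about as large as these errors could be missed.

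At 4 weeks 5 of the 77 were lower (6.75% of 14513 genes tested were called lower) and 1 was higher (6.65%) in Klf9KI hearts by the edgeR test, with a median log2 difference of -0.05 beside 0.00 over all genes. Klf9KI hearts lay below all controls in 14 of 77 (15.6% of all genes). Mrpl41 stood at 25.8, 27.8 and 25.4 CPM against 47.4, 44.0 and 52.1 CPM. The 3 Klf9KI hearts were nearly equal and well below every control (log2 -0.86, SE 0.13, adjusted p = 0.00138). Mrps6, a homologue of a bacterial small-subunit protein, stood at 9.88, 10.5 and 11.1 CPM against 18.7, 18.1 and 21.6 CPM, also without overlap (log2 -0.89, SE 0.16, adjusted p = 0.0039). Its span overlaps Slc5a3 on the same strand, so shared reads make its value uncertain. Mrpl3 stood at 76.4, 81.3 and 67.7 CPM against 108, 118 and 110.4 CPM (log2 -0.58, SE 0.12, adjusted p = 0.00973), Mrps35 at 56.0, 64.4 and 56.5 CPM against 86.4, 71.5 and 98.8 CPM (log2 -0.54, SE 0.14, adjusted p = 0.0284), and in both every Klf9KI heart was below every control. Mrpl45, which holds the large subunit at the inner membrane near the peptide exit, stood at 46.5, 54.1 and 43.5 CPM against 65.9, 61.3 and 72.5 CPM (log2 -0.47, SE 0.13, adjusted p = 0.0354). Mrpl27, which reaches toward the site where peptide bonds form, was the one that rose: it stood at 39.7, 38.9 and 38.3 CPM against 19.9, 22.9 and 31.5 CPM. Wt-Cre replicate 3 was the nearest control to the Klf9KI hearts (log2 0.65, SE 0.17, adjusted p = 0.0261), and Eme1 overlaps the gene on the opposite strand. The call of Mrpl27 was lost without any 1 of the other 5 libraries (adjusted p from 0.0683 to 0.106); without Wt-Cre replicate 3 there were 2 higher calls. Lower calls numbered 2 without Klf9KI replicate 1 or 3, 3 when Klf9KI replicate 2 or Wt-Cre replicate 1 was dropped, and 7 when it was Wt-Cre replicate 2. The median was 0.01 without Wt-Cre replicate 3. Cardiomyocyte markers summed to 28309 to 33408 CPM in Klf9KI and 42414 to 46915 CPM in Wt-Cre hearts at this age, and 4 atrial markers to 1384 to 2447 CPM against 36.4 to 86.5 CPM. Smooth muscle markers summed to 106 to 142 CPM against 405 to 1113 CPM and fibroblast markers to 1398 to 1723 CPM against 875 to 1289 CPM, again without overlap. Of single markers, 2 of 5 cardiomyocyte and 1 of 4 smooth muscle markers were called lower by edgeR. In the other direction, 1 of 5 fibroblast, 1 of 5 macrophage, 1 of 5 proliferation and 1 of 2 tested atrial markers were called higher. The macrophage and proliferation sums overlapped between the genotypes at this age. The part of the marker shifts in the values at 4 weeks was not tested.

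At 1 week no member passed the test, higher (0.651% of 15825 genes were called higher) or lower (1.03%), by edgeR. At an unadjusted p below 0.05 edgeR counted 22 higher (6.45% of all genes) and 2 lower (7.35%). DESeq2 called 4 higher and 0 lower, again without a share over all genes. The log2 difference was above 0 for 67 of 77 with a median of 0.18, beside -0.01 over all genes, and every Klf9KI heart lay above every Wt-Cre heart in 21 of 77 (9.45% of all genes). The lowest adjusted p belonged to Mrpl20, a protein of the large subunit that helps its assembly in bacteria, at 42.0, 53.0 and 43.4 CPM in the Klf9KI and 30.1, 33.8 and 33.6 CPM in the Wt-Cre hearts. These groups did not overlap (log2 0.51, SE 0.13, adjusted p = 0.0655). Mrps25, a small-subunit protein that bacteria lack, followed with the largest 1-week difference of the 77, at 33.2, 47.9 and 33.6 CPM against 24.0, 28.6 and 21.7 CPM (log2 0.62, SE 0.16, adjusted p = 0.0749). Its groups were also apart, and its span overlaps Nr2c2 on the opposite strand. Mrpl34 came next, at 66.5, 87.9 and 78.7 CPM against 62.4, 56.2 and 52.0 CPM (log2 0.45, SE 0.12, adjusted p = 0.0792). Mrps6 and Mrpl52 went the other way, with log2 differences of -0.55 and -0.39 (adjusted p = 0.108 and 0.174) and every Klf9KI heart below every control. Mrpl3 and Mrpl41, called lower at the later ages, had 0.14 and -0.20. Klf9KI replicates 1 and 2 of this age carried Xist, the RNA of female cells, and the other 4 libraries did not; with those 2 left out, or with sex as a covariate, 0 were called and the median was 0.23 or 0.21. Without Klf9KI replicate 1 the count was 2 higher, and the median ran from 0.13 to 0.23 over the libraries left out. Cardiomyocyte markers overlapped at this age, at 14755 to 21060 CPM in Klf9KI and 18257 to 22254 CPM in Wt-Cre hearts.

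Over the 3 ages 3 genes were called in the same direction at 4 and 8 weeks, namely Mrpl3, Mrps35 and Mrpl41, all lower. Of the 77, 56 were called at no age. The shares of all genes called at both ages or at none were not worked out, so these counts have no background here. In the authors' deposited table, at their adjusted p below 0.05, 3 members were higher (0.915% of the 26234 genes with an adjusted p there) and 0 lower (1.07%) at 1 week. At 4 weeks the authors' deposited table has 1 higher (4.28% of 24222 genes) and 5 lower (4.66%), and at 8 weeks 0 higher (3.13% of 30074 genes) and 34 lower (3.63%).

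**Figure D2:**
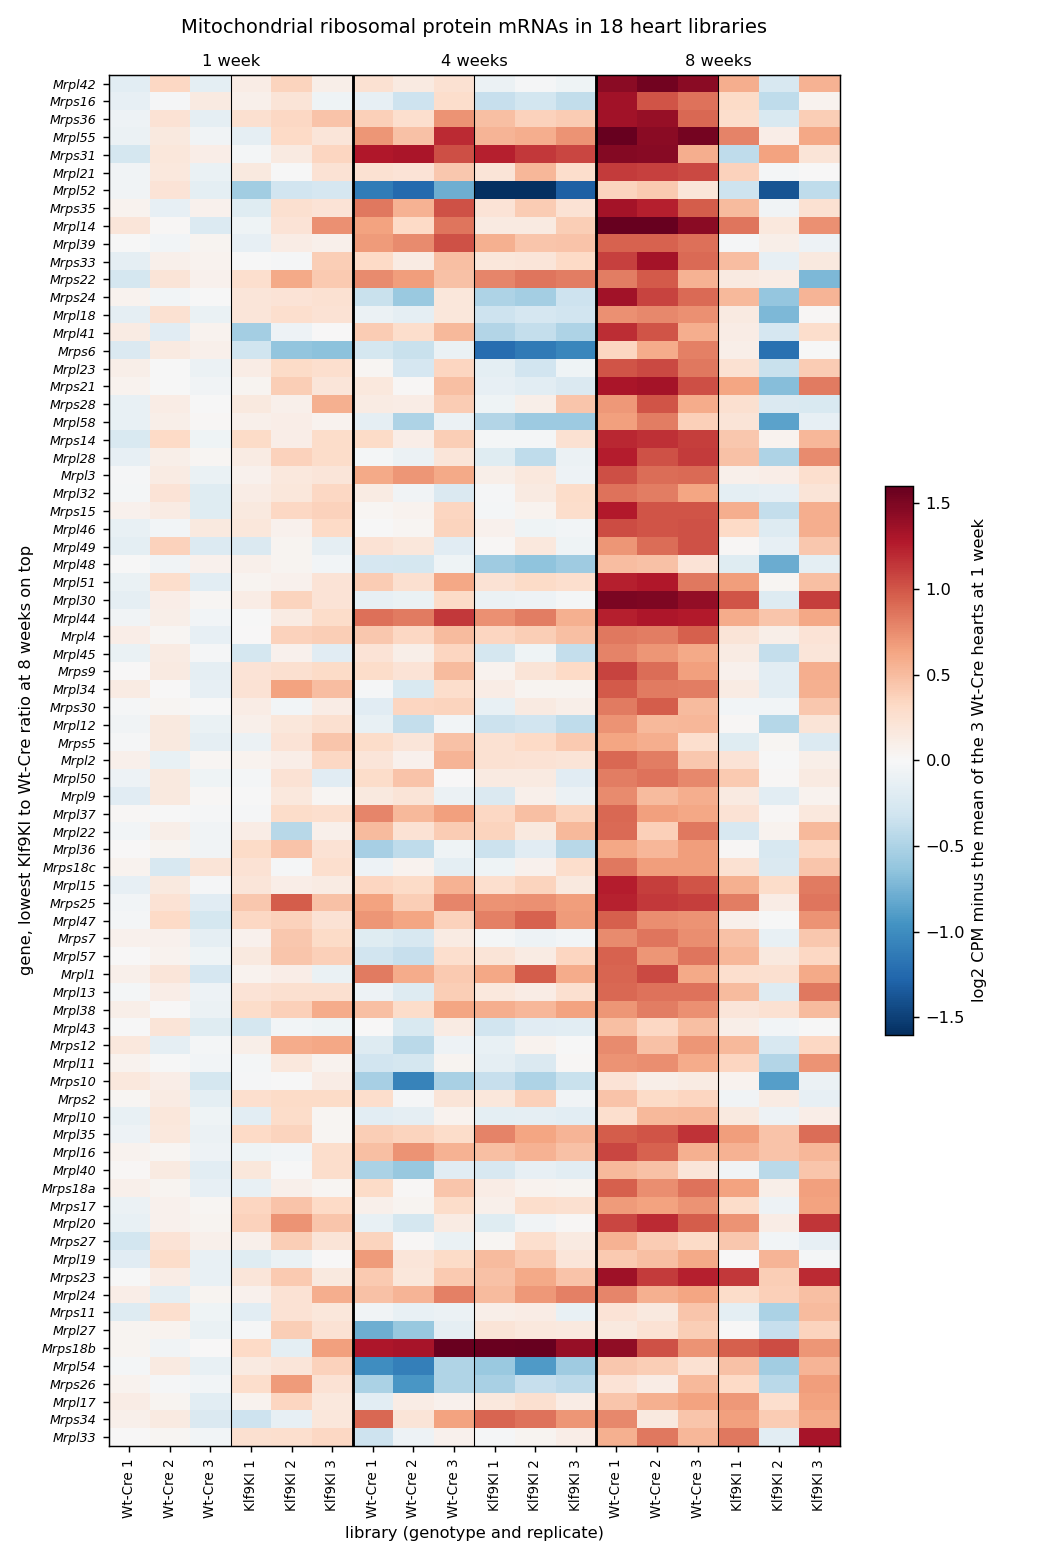
Level of each of the 77 genes (rows, the lowest Klf9KI to Wt-Cre ratio at 8 weeks on top) in each of the 18 libraries (columns), as log2 CPM of the joint fit minus that gene's mean over the 3 Wt-Cre hearts of 1 week. The Wt-Cre hearts of 8 weeks stand highest for most genes, and replicate 2 of Klf9KI has the lowest summed level of that age.

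How the 77 moved with age was read from 1 fit over the 18 libraries and the 16660 genes that passed the filter there; CPM in what follows are on that joint scale. Each age came as a table of its own, so age and any batch that follows age cannot be told apart. In Wt-Cre hearts the edgeR test called 20 of 77 higher at 4 than at 1 week (17.4% of all genes) and 5 lower (17.6%), 57 higher at 8 than at 4 weeks (11.0%) and 0 lower (8.09%; 0 also at an unadjusted p below 0.05), and 67 higher at 8 than at 1 week (19.9%). The median log2 changes were 0.19, 0.72 and 0.79, beside 0.00, 0.01 and -0.01 over all genes. The first step rested partly on single libraries: 11 were higher without Wt-Cre replicate 3 of 1 week, and 3 were lower without any 1 Wt-Cre heart of 1 week or 2 without Wt-Cre replicate 2 of 4 weeks.

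Genes differed in when they moved in the control hearts. Mrpl44 stood at 24.9, 27.6 and 25.2 CPM at 1 week, 47.6, 46.0 and 56.9 CPM at 4 weeks and 61.1, 63.4 and 62.3 CPM at 8 weeks, so that most of its change came by 4 weeks (log2 0.95, SE 0.13, adjusted p = 1.30e-05). Mrpl39 took the same course, with 33.3, 32.6 and 34.7 CPM, 53.8, 56.6 and 67.9 CPM and 64.6, 64.6 and 61.6 CPM at the 3 ages (log2 0.83, SE 0.13, adjusted p = 3.81e-05). Mrps18b and Mrps31, a pair of small-subunit proteins, also rose by 4 weeks (log2 1.40, SE 0.23, adjusted p = 8.13e-05; Mrps31 averaged 17.8 ± 2.94 CPM at 1 week and 40.9 ± 4.11 CPM at 4 weeks, SD, n = 3, adjusted p = 0.000503). Mrpl3 rose in the first step (log2 0.63, SE 0.12, adjusted p = 0.000299) and stood 0.94 higher on the log2 scale at 8 than at 1 week. Other genes moved late. Mrpl42 stood at 159.5, 224 and 160.0 CPM, then 212, 197 and 211 CPM, then 485, 520.0 and 488 CPM, with the 8-week hearts far above both earlier groups (log2 1.27, SE 0.18, adjusted p = 0.000286 from 4 to 8 weeks). Mrps16 (log2 1.13, SE 0.18, adjusted p = 0.000505), Mrpl20 (log2 1.16, SE 0.20, adjusted p = 0.00058) and Mrpl30 (log2 1.43, SE 0.22, adjusted p = 0.00046) rose in the same interval. Mrpl52 fell from 1 to 4 weeks (log2 -1.04) and rose from 4 to 8 weeks (log2 1.36, SE 0.22, adjusted p = 0.000489). Mrpl55 and Mrpl15 rose over the whole span, by 1.57 and 1.12 on the log2 scale from 1 to 8 weeks.

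In Klf9KI hearts 10 of 77 were higher (16.7% of all genes) and 10 lower (17.1%) at 4 than at 1 week, with a median log2 change of -0.08. From 4 to 8 weeks 7 were higher (6.11%) and 3 lower (4.38%), with a median log2 change of 0.14, and from 1 to 8 weeks 7 were higher (14.9%), with a median of 0.01; the medians over all genes lay between -0.01 and 0.01. The 7 higher from 4 to 8 weeks, Mrpl20, Mrpl30, Mrpl33, Mrpl52, Mrpl54, Mrps6 and Mrps26, were all higher in Wt-Cre hearts too. The 3 lower were Mrpl39 (log2 -0.49, SE 0.13, adjusted p = 0.0161), Mrps22 (log2 -0.92, SE 0.21, adjusted p = 0.00811) and Mrps31 (log2 -0.94, SE 0.24, adjusted p = 0.014). Without Klf9KI replicate 2 of 8 weeks the counts were 30 higher and 5 lower from 4 to 8 weeks, 17 higher from 1 to 8 weeks, and 19 lower from 1 to 4 weeks. Without 1 of the other Klf9KI hearts of 4 or 8 weeks they were 0 to 3 higher from 4 to 8 weeks, with 1 lower without replicate 1 of either age. From 1 to 8 weeks 3 were higher without Klf9KI replicate 1 or 2 of 1 week or replicate 1 of 8 weeks, and 4 without replicate 3 of 8 weeks. From 1 to 4 weeks 6 were higher without Klf9KI replicate 1 or 2 of 4 weeks, and 6 lower without replicate 2.

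**Figure D3:**
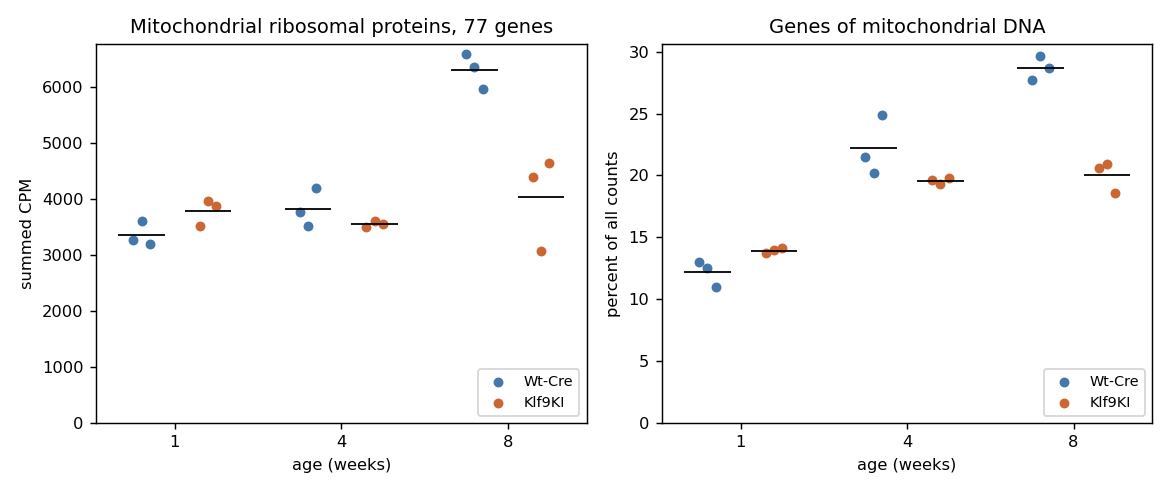
Left, summed level of the 77 genes in each of the 18 libraries, in CPM of the joint fit; right, percent of counts in genes of mitochondrial DNA; each point is 1 library and each bar the mean of 3. Wt-Cre hearts reach 5973 to 6601 CPM at 8 weeks and Klf9KI hearts 3068 to 4653 CPM, whereas all 12 libraries of 1 and 4 weeks lie between 3191 and 4193 CPM, and the percent of counts from mitochondrial DNA separates the genotypes most at 8 weeks (18.6 to 20.9% in Klf9KI, 27.7 to 29.7% in Wt-Cre).

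As a description, and without standing for the course of every single gene, the summed level is given here. It was 3266, 3609 and 3191 CPM in Wt-Cre and 3529, 3976 and 3883 CPM in Klf9KI hearts at 1 week, and 3775, 3515 and 4193 CPM against 3495, 3615 and 3564 CPM at 4 weeks. At 8 weeks it was 6601, 6365 and 5973 CPM in Wt-Cre (6313 ± 317, SD, n = 3) and 4399, 3068 and 4653 CPM in Klf9KI hearts (4040 ± 851, SD, n = 3), which then did not overlap.

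Whether the genotype difference itself changed with age was tested as an interaction in the fit over 18 libraries. Between 1 and 8 weeks it moved downward in 43 of 77 (5.53% of all genes), with a median of -0.79 beside 0.02 over all genes. Between 4 and 8 weeks it moved downward in 1 (0.324% of all genes), Mrpl21, and in 40 at an unadjusted p below 0.05 (7.66% of all genes), with a median of -0.55 beside 0.00 over all genes. Between 1 and 4 weeks it moved downward in 1 (0.468% of all genes), Mrpl3. Upward calls were 0 in all 3 contrasts, at an unadjusted p below 0.05 as well, beside 0.684%, 3.92% and 0.156% of all genes called upward between 1 and 4, 1 and 8, and 4 and 8 weeks. Mrps36 had the largest interaction between 1 and 8 weeks: its Wt-Cre hearts went from 40.2, 50.0 and 38.6 CPM to 108, 112 and 80.5 CPM, and its Klf9KI hearts from 51.0, 53.8 and 58.4 CPM to 51.7, 36.0 and 55.9 CPM. The controls rose, whereas the Klf9KI hearts of both ages overlapped (log2 -1.40, SE 0.24, adjusted p = 0.0011). Mrpl3 gave -0.94 (adjusted p = 0.00136), Mrpl4 -0.96 (adjusted p = 0.00182), Mrpl39 -0.95 (adjusted p = 0.00191) and Mrpl21 -1.09 (adjusted p = 0.00215). Between 4 and 8 weeks Mrpl21 in Klf9KI hearts went from 29.0, 36.5 and 30.6 CPM to 32.5, 24.7 and 25.2 CPM and in Wt-Cre hearts from 29.7, 29.3 and 33.8 CPM to 54.7, 53.6 and 52.4 CPM (log2 -1.01, SE 0.21, adjusted p = 0.0314). The interaction of Mrpl3 between 1 and 4 weeks (log2 -0.71, SE 0.17, adjusted p = 0.0353) came with Wt-Cre values of 73.3, 81.8 and 69.0 CPM then 113, 121 and 114 CPM, and Klf9KI values of 78.4, 83.5 and 85.6 CPM then 79.5, 84.1 and 70.6 CPM. The count of 43 was 39 without Klf9KI replicate 2 of 8 weeks, 24 or 27 when Wt-Cre replicate 3 or 1 of 1 week was left out, 27 or 25 when it was Klf9KI replicate 2 or 3 of 1 week, and 25 when it was Wt-Cre replicate 1 of 8 weeks. The calls of Mrpl3 between 1 and 4 weeks and of Mrpl21 between 4 and 8 weeks were lost without any 1 of 10 and of 9 of the 18 libraries.

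**Figure D4:**
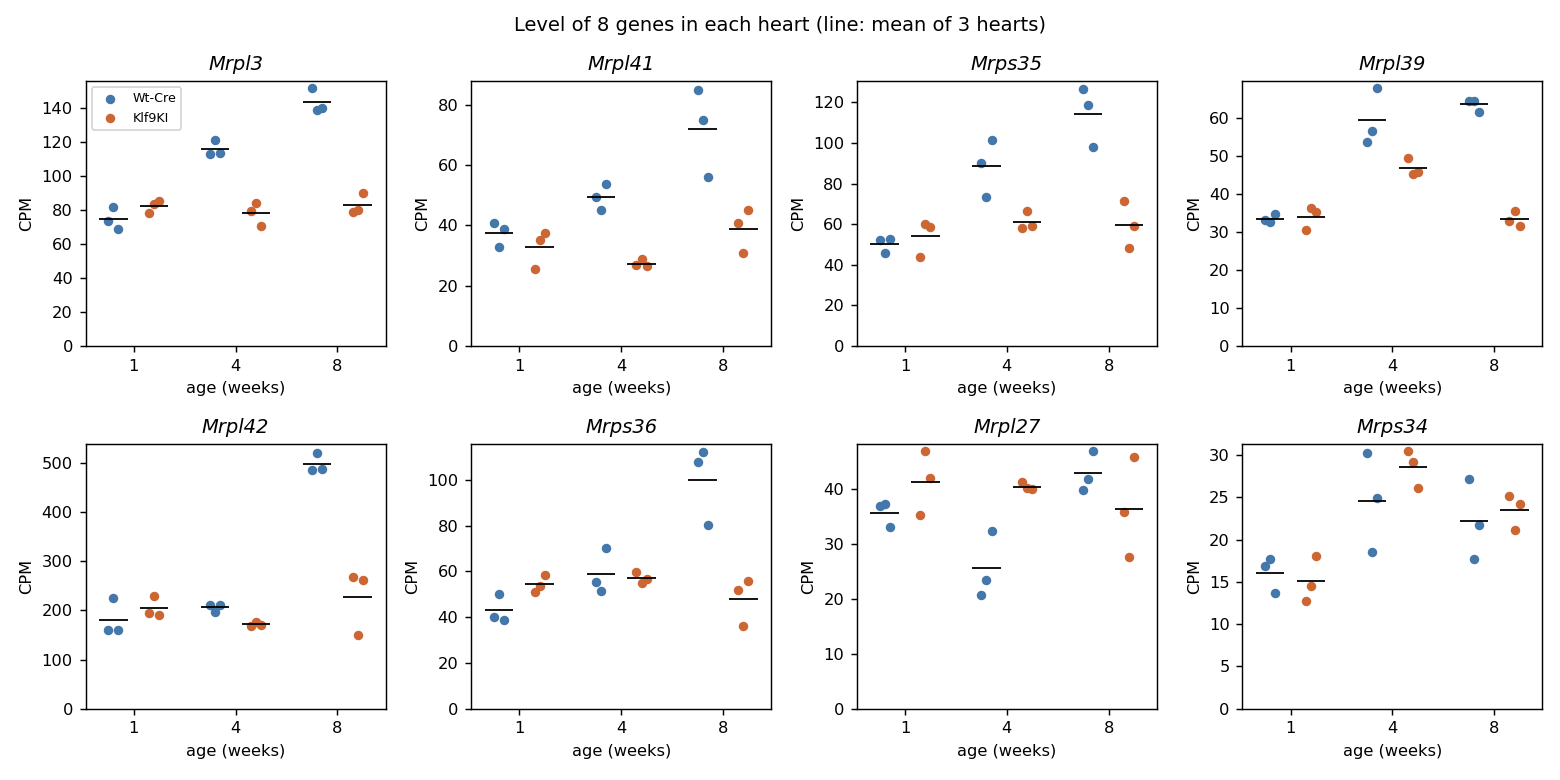
CPM of the joint fit at 1, 4 and 8 weeks for Mrpl3, Mrpl41, Mrps35, Mrpl39, Mrpl42, Mrps36, Mrpl27 and Mrps34, with a point for each heart and a bar at the mean of 3 hearts. In Mrpl42 and Mrps36 the Wt-Cre means climb between 4 and 8 weeks and end far above the Klf9KI means, in Mrpl3 and Mrpl41 the genotypes are already apart at 4 weeks, and in Mrps34 they stay close.

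Most of the 77 have a short listed gene length, and length went with the differences over the whole table. The genes were therefore set beside protein-coding genes of similar listed length. Sorted into 4 length classes of equal size, the shortest class holds 44 of the 77; there the median log2 difference at 8 weeks was -0.61 for the members and -0.14 for all genes of that class. In the longest class, with 7 members, it was -0.41 against 0.17. In Wt-Cre hearts from 4 to 8 weeks the shortest class gave 0.76 for the members against 0.42 for all genes, and the longest 0.72 against -0.27. For the interaction between 1 and 8 weeks the values were -0.78 against -0.24 and -0.68 against 0.20. In these contrasts the members thus lay on the same side in both classes, while the genes of the table changed side with length. For genotype at 1 week the members also kept their side (0.17 and 0.13). In Wt-Cre hearts from 1 to 4 weeks they did so too (0.14 and 0.01). For genotype at 4 weeks the members changed side (-0.06 against 0.03, and 0.11 against -0.04). In Klf9KI hearts from 4 to 8 weeks they gave 0.15 against 0.22, and 0.26 against -0.10. The part of length in the differences was not tested.

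Other genes of mitochondrial translation were read from lists of known function. Of all genes tested, 5.52% were called lower and 4.96% higher at 8 weeks. These shares were 6.75% and 6.65% at 4 weeks and 1.03% and 0.651% at 1 week. A single call in a list of 16 genes at 8 weeks lies near them. Of the 5 ribosomal subunits that carry other names, Ptcd3 was lower at 8 weeks (73.3 ± 7.17 CPM in Klf9KI against 119 ± 6.71 CPM in Wt-Cre, SD, n = 3; log2 -0.70, SE 0.17, adjusted p = 0.026), and the median of the 5 was -0.61. Of 24 genes for assembly of the mitochondrial ribosome 3 were lower and 0 higher at 8 weeks (median -0.42): the GTPases Mtg1 (log2 -0.72, adjusted p = 0.0419) and Mtg2 (log2 -1.01, adjusted p = 0.0319), and the pseudouridine synthase Rpusd4 (log2 -0.98, adjusted p = 0.0243). Of 16 translation factors 3 were lower (median -0.47), namely the release factor Mtrf1 (log2 -0.96, SE 0.24, adjusted p = 0.0295), the recycling factor Mrrf (log2 -0.69, SE 0.18, adjusted p = 0.0358) and the rescue factor Mtrfr (log2 -0.98, SE 0.26, adjusted p = 0.034). Of 20 genes that charge mitochondrial tRNAs 2 were lower (median -0.40), Yars2 (log2 -0.86, adjusted p = 0.0321) and Qrsl1 (log2 -1.11, adjusted p = 0.0220), and Qrsl1 was lower at 4 weeks too (log2 -0.53, adjusted p = 0.0425). Of 16 genes for transcription and RNA processing in mitochondria 1 was lower at 8 weeks (median -0.14): Hsd17b10, a subunit of mitochondrial RNase P and an enzyme of isoleucine breakdown, fell from 171 ± 18.6 CPM in Wt-Cre to 61.9 ± 13.0 CPM in Klf9KI hearts (log2 -1.47, SE 0.21, adjusted p = 0.00155). At 4 weeks Hsd17b10 was lower as well (log2 -0.74, adjusted p = 0.00381), while Prorp, the nuclease of the same RNase P, and the polynucleotide phosphorylase Pnpt1 were higher (log2 0.91 and 0.58, adjusted p = 0.0114 and 0.0384). The lists of subunits, assembly genes and translation factors gave 0 calls at 4 weeks (medians -0.17, -0.02 and -0.06), and none of the 5 lists gave a call at 1 week (medians 0.03 to 0.22).

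The list of 14 regulators, with Klf9 among them, gave 1 higher (Klf9) and 1 lower at 8 weeks and a median of 0.21. Over all genes 4.96% were called higher and 5.52% lower, so these counts lie near the background. The lower one was Ppargc1a, the coactivator that drives mitochondrial biogenesis. Ppargc1a was lower in Klf9KI hearts at 4 weeks (114 ± 24.9 CPM against 270.4 ± 107 CPM, SD, n = 3; log2 -1.24, SE 0.28, adjusted p = 0.0203) and at 8 weeks (44.3 ± 8.56 CPM against 77.8 ± 8.36 CPM; log2 -0.81, SE 0.20, adjusted p = 0.0248). Myc was higher at 4 weeks (log2 2.22, SE 0.35, adjusted p = 0.002), at 11.7 ± 2.45 CPM against 2.50 ± 1.24 CPM, and was not called at 8 weeks. Nrf1 and Gabpa, the factors best known at promoters of nuclear genes for mitochondrial proteins, had log2 differences of -0.11 and 0.01 at 8 weeks, and Yy1 had 0.19; none passed the test. The 36 nuclear subunits of respiratory complex I gave 19 lower at 8 weeks with a median of -0.84, and the 82 cytosolic ribosomal proteins tested gave 1 lower and 1 higher with a median of -0.30. From 4 to 8 weeks in Wt-Cre hearts 31 of 36 complex I subunits and 77 of 83 cytosolic ribosomal proteins were higher (11.0% of all genes), with medians of 0.89 and 1.21. In Klf9KI hearts over that interval 2 of 36 and 61 of 83 were higher (6.11% of all genes), with medians of 0.15 and 0.90. The cytosolic ribosomal proteins had first fallen from 1 to 4 weeks, with 75 of 83 lower in each genotype (medians -0.98 in Wt-Cre and -1.17 in Klf9KI). Of all genes, 17.6% were called lower over that interval in Wt-Cre and 17.1% in Klf9KI hearts. Their median from 1 to 8 weeks in Wt-Cre hearts was 0.16.

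Klf9 regions were listed for about the same share of the 77 genes as of other genes. Of the 5238 merged regions 38 name a member in their gene list, and 32 of these name another gene as well. A region was listed for 31 of 77 (40.3%, beside 41.0% of 12999 protein-coding genes tested at 8 weeks), lay within 1 kb of the start of 24 (31.2% beside 29.9%), and had a sham signal above the median of all regions for 16 (20.8% beside 24.2%). All 24 near regions held a CpG island, as did 92.4% of the 3846 near regions of any protein-coding gene, and their median distance from the start was 66.5 bases. The authors' mean sham signal over the 38 regions had a median of 25.0 (range 14.5 to 86.6), beside 24.6 over all regions. After TAC the signal was higher in 11 and lower in 26 of the 38, with a median log2 ratio of -0.27 beside -0.12 over all regions; with 1 library per condition there was no test.

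The 5 genes with the highest sham signal were Mrpl2 (86.6, a region 4336 bases past its start), Mrpl48 (74.8, a region 25115 bases past the start and inside the gene), Mrps18b (70.8, 6438 bases past the start, beside a second region of 40.5 at 135 bases before the start), Mrpl52 (50.2, 2 bases before the start) and Mrpl55 (48.6, 59 bases before the start). Of these Mrpl55 alone was called at 8 weeks. Among the 24 genes with a near region 7 were lower at 8 weeks (median -0.65), and among the other 53 it was 11 (median -0.58). Over protein-coding genes the counts were 226 of 3892 with a near region (median 0.01) and 494 of 9109 without (median 0.08).

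**Figure D5:**
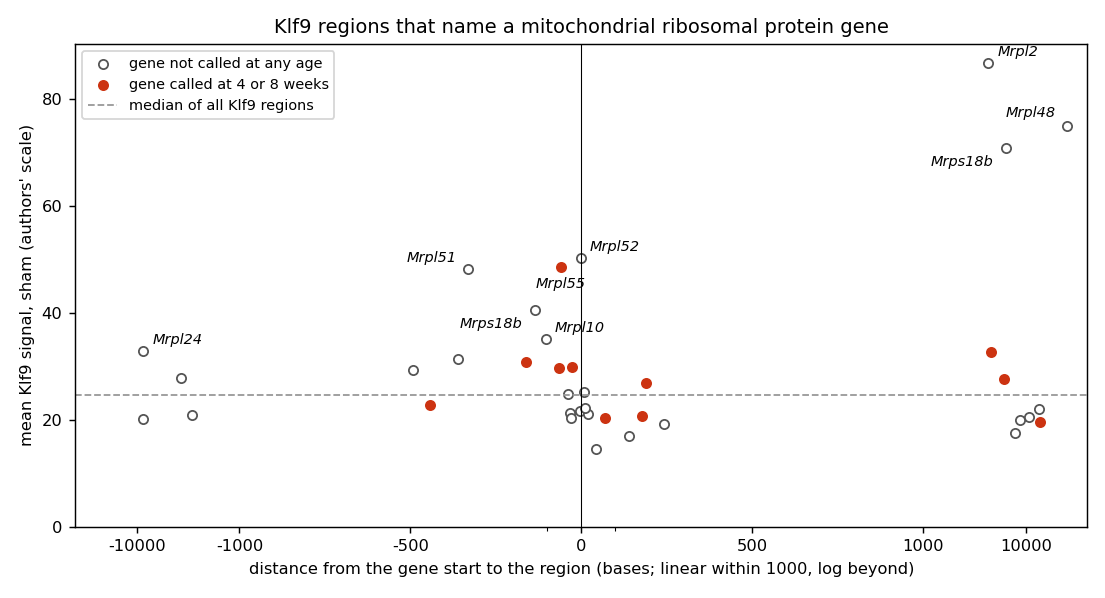
Mean sham signal of the 38 Klf9 regions that name a member, on the authors' scale, against the distance from the gene's start (linear within 1000 bases and logarithmic beyond), with genes called at 4 or 8 weeks filled and the median of all regions dashed. Most regions lie close to the start at signals near the median, and the 3 strongest, at Mrpl2, Mrpl48 and Mrps18b, lie far past it.

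Promoter sequence was read from RefSeq (GRCm38.p6, the build called mm10 in the files), from 250 bases before to 50 after the start, for the 68 members in that table; 20 of these windows meet a Klf9 region. The 4 printed here belong to the genes called at 8 weeks whose window meets the strongest regions, Mrpl55 (sham signal 48.6), Mrps16 (30.8), Mrpl41 (29.8) and Mrps33 (29.7). They lie at chr11:59202236-59202535, plus strand, at chr14:20393585-20393884, minus strand, at chr2:24975049-24975348, minus strand, and at chr6:39810887-39811186, minus strand. Each is written 5′ to 3′ along the gene, in lower case, with the GC box GGGCGG or its complement CCGCCC, the core bound by Sp and Klf factors, in capitals.
Mrpl55: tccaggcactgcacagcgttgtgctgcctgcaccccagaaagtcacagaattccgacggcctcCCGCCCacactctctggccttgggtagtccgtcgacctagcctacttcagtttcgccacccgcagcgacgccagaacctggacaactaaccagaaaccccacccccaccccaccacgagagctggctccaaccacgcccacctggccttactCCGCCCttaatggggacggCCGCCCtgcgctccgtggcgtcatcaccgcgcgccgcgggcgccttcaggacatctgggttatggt
Mrps16: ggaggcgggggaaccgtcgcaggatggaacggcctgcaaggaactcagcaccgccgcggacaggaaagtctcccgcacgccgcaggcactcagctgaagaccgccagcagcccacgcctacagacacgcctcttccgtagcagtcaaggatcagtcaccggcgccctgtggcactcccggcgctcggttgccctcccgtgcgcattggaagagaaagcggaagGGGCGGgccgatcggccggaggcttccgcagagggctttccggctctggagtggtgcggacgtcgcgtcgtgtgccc
Mrpl41: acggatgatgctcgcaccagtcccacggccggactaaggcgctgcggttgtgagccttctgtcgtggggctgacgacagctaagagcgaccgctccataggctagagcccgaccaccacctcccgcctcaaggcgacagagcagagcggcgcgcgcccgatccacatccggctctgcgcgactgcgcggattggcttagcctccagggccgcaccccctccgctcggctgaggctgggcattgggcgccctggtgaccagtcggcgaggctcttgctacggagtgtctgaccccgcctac
Mrps33: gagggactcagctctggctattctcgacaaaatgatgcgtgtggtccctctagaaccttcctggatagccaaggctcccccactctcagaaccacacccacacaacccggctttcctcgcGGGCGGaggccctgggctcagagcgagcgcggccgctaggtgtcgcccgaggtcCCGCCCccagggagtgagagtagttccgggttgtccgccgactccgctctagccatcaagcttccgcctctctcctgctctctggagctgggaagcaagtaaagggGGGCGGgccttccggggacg
Mrpl55 and Mrps33 hold 3 GC boxes each, Mrps16 holds 1, and Mrpl41 holds none in this window. These windows are rich in G and C (64.3 to 68.3%, beside a median of 58.2% over the 68 members and 60.7% over 13070 promoters of tested protein-coding genes).

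Across the 68 windows, both strands searched, the GC box GGGCGG was found in 50%, beside 61.4% of the promoters of tested protein-coding genes and 35.7% of all 32851 promoters. The CACCC sequence, another element of Klf factors, was found in 50%, beside 63.6% and 57.5%. The ETS sequence CCGGAAG, read by Gabpa, was found in 33.8% beside 16.4% and 8.86%, the NRF1 sequence GCATGCGC in 11.8% beside 4.90% and 2.71%, and the YY1 sequence AAGATGG in 19.1% beside 6.80% and 6.34%. The E-box CACGTG was found in 7.35% beside 9.77% and 7.15%. Of the 20 windows that meet a Klf9 region 15 held the GC box. The share among windows of other genes that meet a Klf9 region was not worked out, so this count has no background. The sequences can overlap, as CCGGAAG and AAGATGG do when they share AAG, or CACCC and CCGCCC when they share CC. A match describes the sequence only.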

How the data were processed

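Polyadenylated RNA of 18 mouse heart libraries and 2 Klf9 ChIP-seq libraries was used. Raw counts per gene were deposited by the authors; per the submitters' processing notes the tools were DESeq2 1.20.0, featureCounts 1.5.0-p3, HISAT2 2.0.5, fastp and StringTie 1.3.3b, and MACS2 2.1.0 with BWA, on mm10. The log2 ratios and adjusted p-values of the authors' own test, and the gene lengths (other), were deposited in the same tables. For the ChIP the authors deposited the mean signal over each merged region, whose scaling between libraries is not given in the sources used here, and a log2 ratio of TAC to sham; other columns there are presence calls per region and numbers of CpG islands, per the file headers.

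From the counts, edgeR 4.0.16 (R 4.3.3; filterByExpr, TMM, robust glmQLFit, glmQLFTest) compared Klf9KI with Wt-Cre within each age, and 1 fit over 18 libraries gave the age and interaction contrasts; p-values were adjusted by Benjamini-Hochberg over all genes tested, with a threshold of 0.05. The scripts were tested on simulated data. CPM are on TMM-scaled library sizes. Alternatives were DESeq2 1.42.0 size factors and its Wald test, no filter, 1 CPM in 3 libraries, protein-coding genes alone, no genes of mitochondrial DNA, a replicate block, and each library left out; fits without robust weights, and for the interactions without a filter or on protein-coding genes alone, were chosen after seeing the data. The members and lists were chosen with earlier results of these data known. Genes named were, per age, up to 8 called members in each direction with the lowest adjusted p, members called at 2 ages, up to 5 per age or interaction contrast, the 3 highest and 3 lowest levels, the 5 strongest Klf9 regions and genes of known role; the rest were chosen after their values were seen. Mrpl53 was not analysed here. Of the 77, 22 overlap another protein-coding gene. P-values measure the spread between these libraries, which may be in part technical. How reads shared by near-identical copies were counted is not given in the sources used here, so members with pseudogene copies are less certain.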

Additional observations from a re-analysis of the deposited data

Results flagged for a closer look

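The results here were picked out because the genotype difference itself was tested to differ between ages, in the edgeR fit over 18 libraries. Between 1 and 8 weeks it differed in 43 of 77 mitochondrial ribosomal protein genes, each lower at 8 weeks (5.53% of all genes; median of the 77 -0.79). The 36 nuclear subunits of respiratory complex I gave 30 lower in the same contrast (median -1.17). The 83 cytosolic ribosomal proteins tested gave 3 lower (median -0.46). The downward shift is thus not particular to the 77. The 5 of the 77 with the lowest adjusted p were Mrps36 (log2 -1.40, SE 0.24, adjusted p = 0.0011), Mrpl3 (log2 -0.94), Mrpl4 (log2 -0.96), Mrpl39 (log2 -0.95) and Mrpl21 (log2 -1.09). Between 1 and 4 weeks the genotype difference changed in 1 of the 77, Mrpl3 (log2 -0.71; 0.468% of all genes moved downward). Between 4 and 8 weeks it changed in 1, Mrpl21 (log2 -1.01; 0.324%). Whether age or a batch that follows age lies behind these differences cannot be told apart.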

How the results depend on the processing

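The numbers of calls moved with the setting more than the medians did. For these other settings the share of all genes called was not worked out. At 1 week 4 members were higher by the DESeq2 Wald test and 6 without a filter, when 1 was lower; leaving out single libraries gave 0 to 2 higher. At 4 weeks lower calls numbered 8 with the replicate block and 3 in the fit over 18 libraries, and leaving out single libraries gave 2 to 7 lower and 0 to 2 higher; the median then ran from -0.0953 to 0.00902, with the sign turned (0.00902) without Wt-Cre replicate 3. At 8 weeks lower calls numbered 35 by the DESeq2 Wald test, 33 without a filter, 30 with the replicate block, 49 in the fit over 18 libraries and 0 to 33 with single libraries left out, around 18; the 18 genes were all called by DESeq2 and in the fit over 18 libraries too, and the median ran from -0.70 to -0.48. With single libraries left out, higher calls in Wt-Cre ranged over 11 to 24 (lower, 2 to 6) from 1 to 4 weeks, 42 to 57 from 4 to 8 weeks and 59 to 68 from 1 to 8 weeks. In Klf9KI they ranged over 6 to 12 (lower, 6 to 19), 0 to 30 (lower, 1 to 5) and 3 to 17. Interaction calls ranged over 0 to 1 (0 without a filter) between 1 and 4 weeks, 24 to 56 between 1 and 8 weeks, and 0 to 10 between 4 and 8 weeks, where the DESeq2 Wald test gave 6. Klf9 regions with a sham signal above the median were held by 16 members, of 31 with any region. The cause of these moves was not tested, except that fits with a library left out have fewer samples.

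The replicate numbers come from column names alone. Same-numbered libraries of both genotypes correlated at 0.08, 0.11 and -0.16 at 1 week, 0.13, 0.05 and 0.27 at 4 weeks and 0.08, 0.13 and 0.18 at 8 weeks, so no age had every pair above 0.1 and the numbers were not taken as pairs; at 8 weeks every Klf9KI library correlated best with its own number. The replicate block gave 0 higher and 0 lower at 1 week (median 0.18), 1 higher at 4 weeks (median -0.05) and 0 higher at 8 weeks (median -0.60). The age and interaction contrasts were fitted without a block. Precision is limited by 3 libraries per group.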
